A study of Rattus norvegicus with 70 samples.

Results

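SAT, the subcutaneous fat of female Sprague-Dawley rats that had inhaled PCB 52, was compared with SAT of sham-exposed females over every gene row of the deposited count table. The comparison rests on 11 of the 70 libraries of the series: 6 from PCB 52 rats (numbers 14, 16, 18, 20, 22 and 24) and 5 from sham rats (numbers 2, 6, 8, 10 and 12), chosen by sex, tissue and treatment in the labels and not by any measured value. The titles give each library 1 rat number, and the 70 libraries include no SAT of sham rat 4. No genetic modification or further treatment is named for either group. Females reached the laboratory at 28 days of age, acclimated for 8 days and were randomised at 42 days to sham or to 4 h of nose-only exposure a day for 28 days, in filtered air drawn at 12 L/min over glass beads coated with PCB 52. What the sham rats breathed, and from which body site SAT was taken, is not given in the sources used here. The question was which transcripts of adolescent fat differ after this exposure.

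PCB 52 is a tetrachlorinated biphenyl of the kind that binds the aryl hydrocarbon receptor poorly and is light enough to be found in indoor air. Subcutaneous white fat stores triglyceride in adipocytes, secretes hormones such as adiponectin and leptin, and releases fatty acids when receptors coupled to cyclic AMP are engaged. In female rats the inguinal part of this depot surrounds the mammary gland, so dissected tissue can carry epithelium, and skin-side muscle can come with it. Peripheral clocks run in fat as elsewhere: BMAL1 and CLOCK drive the genes for REV-ERB proteins, which in turn repress Bmal1 through a pair of response elements in its promoter.

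The libraries held 6747050 to 8381507 counts over 15319 gene rows. The library of sham rat 8 stood apart from the other 10. It had a count for 11108 genes against 13389 to 13654 elsewhere, and ribosomal protein genes took 28.2% of its counts against 6.64% to 9.27%. Of 9518 genes with a mean of at least 10 CPM (counts scaled to the library total) in the other libraries, 433 had no count in it, against 1 to 20 in each of the others. Its Spearman correlation across genes with the other libraries was 0.637 to 0.689, where the others correlated with each other at 0.885 or more. The BAT and VAT libraries of the same rat had ribosomal shares of 2.45% and 2.96%, inside the ranges of the other sham libraries of those depots (2.42% to 3.36% and 2.79% to 3.80%). Fold changes and list counts of female SAT are therefore given with and without this library.

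**Figure D1:**
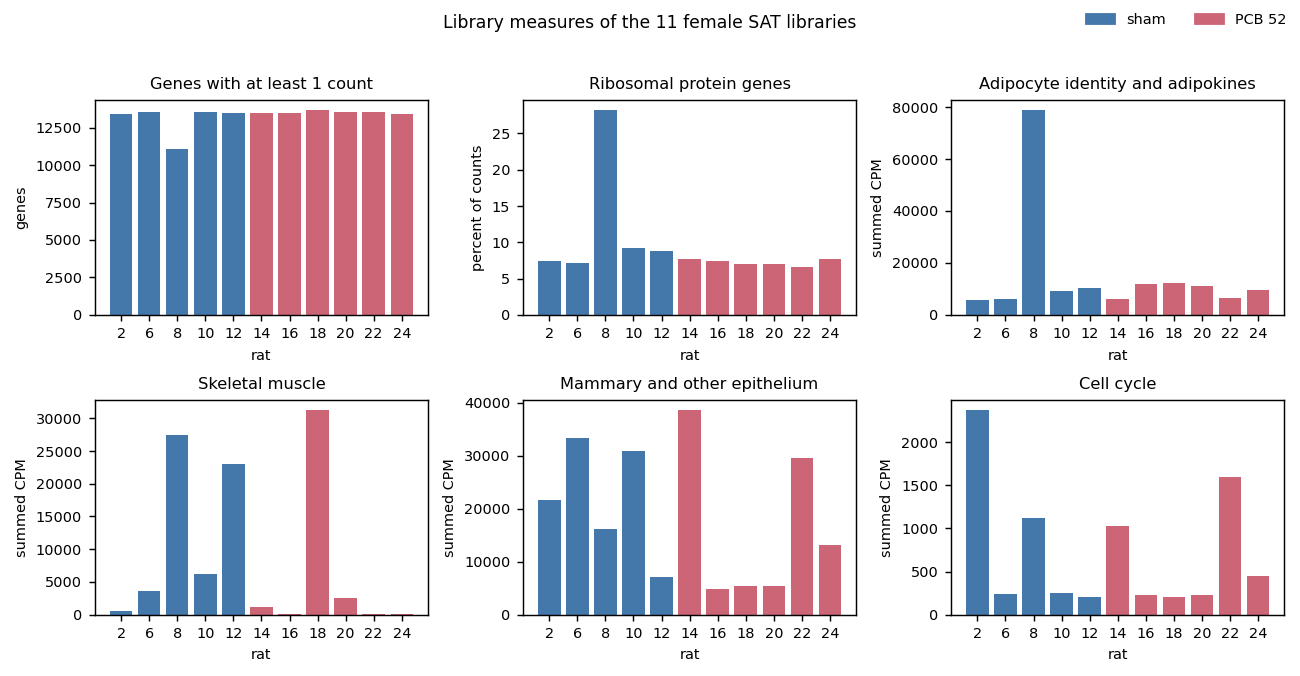
Bars give 6 measures for each of the 11 female SAT libraries by rat number, sham in blue and PCB 52 in red. They are genes with a count, percent of counts in ribosomal protein genes, and summed normalised CPM of 4 gene lists. Rat 8 stands apart in genes detected, ribosomal share and adipocyte genes; muscle, mammary and cell cycle genes vary from rat to rat inside both groups.

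The label of fat held in every library, and the dissected pieces differed in what else they contained. CPM in this paragraph is scaled by trimmed mean of M values (TMM) over the 11 libraries. This raises the values of rat 8, whose TMM factor was 0.551. Adipoq, which encodes adiponectin, lay between 678 and 4581 CPM, while Ucp1 of brown fat was at or below 0.582 CPM throughout. The 23 skeletal muscle genes summed to 52.9 to 31240 CPM in the PCB 52 group (median 654). In the sham group they summed to 467 to 27473 CPM (median 6181), highest in rat 8 and then in rat 12, at 23073 CPM. Of 21 tested muscle genes 21 were lower after PCB 52 with all libraries and 18 without rat 8, with medians of -0.61 and -0.44 on the log2 scale. Of all genes tested 49.4% and 54.5% were lower. Ckm, muscle creatine kinase, was at 0.246, 0.333 and 0.255 CPM in PCB 52 rats 16, 22 and 24 and at 3512 CPM in PCB 52 rat 18. The 23 mammary and epithelial genes summed to 4822 to 38580 CPM after PCB 52 and to 7126 to 33350 CPM in sham. Csn1s1, a milk casein, was highest in PCB 52 rats 14 and 22, at 22753 and 21951 CPM, and reached 13953 CPM in sham rat 10. The same PCB 52 rats 14 and 22, with sham rat 2, also carried the cell cycle genes: 1025, 1604 and 2374 summed CPM, against 205 to 447 in the 7 remaining libraries other than rat 8, which had 1117. Of 23 cell cycle genes 19 were lower after PCB 52 with rat 8 and 22 without, with medians of -0.29 and -0.31, and 0 muscle or cell cycle genes passed the test. Cd3e, a defining marker of T cells, was at no more than 2.09 CPM. The 25 lymphoid genes summed to 428 to 1032 CPM after PCB 52 and to 355 to 1760 CPM in sham. The sham maximum was rat 8, and the other sham rats reached at most 735 CPM. In such bulk tissue fewer cells of a type and less RNA per cell cannot be told apart.

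No gene passed an adjusted p of 0.05 (Benjamini-Hochberg) in edgeR's quasi-likelihood test between PCB 52 and sham. With all 11 libraries 0 of 11824 genes were called (0%), and 605 genes (5.12%) had an unadjusted p under 0.05. Without rat 8, 0 of 11954 were called (0%), and 283 (2.37%) had an unadjusted p under 0.05. If no gene differed, 591.2 genes with rat 8 and 597.7 without would be expected under that level by chance. With all 11 libraries, DESeq2, limma voom and limma voom with sample quality weights also called 0, with 465, 149 and 935 genes at an unadjusted p under 0.05. Without rat 8 the same 3 tools called 1, 0 and 0, with 343, 262 and 857 genes at that level. The median standard error of a log2 fold change was 0.33 with rat 8 and 0.19 without it. Of the 605 genes, 545 (4.61% of those tested) were lower after PCB 52 and 60 (0.507%) higher; without rat 8 the counts were 83 lower (0.694%) and 200 higher (1.67%), so the balance of directions turned with this library. Leaving out sham rat 2 as well as rat 8 gave 907 genes at an unadjusted p under 0.05 and a lowest adjusted p of 0.17. No difference between PCB 52 and sham described below passed edgeR's test after adjustment. The values are given as levels in normalised CPM, scaled by trimmed mean of M values (TMM) over the 11 libraries, and as log2 fold changes of PCB 52 over sham with their standard errors.

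Bmal1 (gene 29657), the core clock transcription factor, had the smallest p once rat 8 was left out. Sham rats 2, 6, 10 and 12 had 12.3, 13.1, 11.5 and 11.3 CPM, and the PCB 52 rats had 5.02 to 7.61 CPM with a median of 6.35. All 6 PCB 52 libraries lay below those 4 sham libraries, with means of 6.30 ± 0.944 (SD, n = 6) and 12.1 ± 0.832 CPM (SD, n = 4), a 1.92-fold difference. The log2 fold change was -0.93 (SE 0.16), with an unadjusted p of 0.000129 and an adjusted p of 0.9997 in edgeR. DESeq2 gave -0.94 (SE 0.19) and an adjusted p of 0.00416, its only call among 11918 genes with an adjusted value (0.00839%), while limma voom gave -0.94 (SE 0.15) and an adjusted p of 0.82. In sham rat 8 Bmal1 had 0 counts, which allows up to 0.736 CPM by counting error alone. That library had no count for 433 of 9518 genes chosen by their level in the other libraries. Whether this 0 gives the level in the tissue was not tested. With that library included the log2 fold change was -0.63 (SE 0.64, adjusted p = 0.896 in edgeR). By its count rat 8 lay under every PCB 52 library for this gene, on the other side from the remaining sham rats.

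The promoter of Bmal1 is shown because it carries the elements through which REV-ERB and ROR proteins act on this gene. The sequence covers the 250 bases before the annotated start in RefSeq's GRCr8 build (chr1:176766078-176766327, plus strand), a later build than the rn6 build of the counts. Capitals mark the 11-base ROR and REV-ERB element, searched on either strand with any base allowed where the 2 matches differ.

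Bmal1: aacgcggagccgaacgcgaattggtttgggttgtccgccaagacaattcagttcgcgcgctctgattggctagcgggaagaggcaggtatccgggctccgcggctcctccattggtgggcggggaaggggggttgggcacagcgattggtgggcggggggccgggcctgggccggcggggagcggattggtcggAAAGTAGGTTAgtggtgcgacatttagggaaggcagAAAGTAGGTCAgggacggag

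Both matches were on the plus strand, from 56 to 46 and from 20 to 10 bases before the start. The form searched is the one known from this promoter, so that its presence here was given. Of 33469 RefSeq promoter windows of this length, 12 (0.0359%) held it. A match of letters is a description of the window and was not tested as a binding site.

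Nr1d1, which encodes REV-ERB alpha, differed in the other direction. Its level was 110, 78.1, 58.6 and 66.9 CPM in sham rats 2, 6, 10 and 12 and 63.3 CPM in rat 8, and it was 78.7 to 151 CPM (median 112) after PCB 52. PCB 52 rats 14, 20 and 22 lay inside the sham range and rats 16, 18 and 24 above it. The log2 fold change was 0.59 (SE 0.21) with all libraries and 0.55 (SE 0.21) without rat 8, with adjusted p of 0.768 and 0.9997 in edgeR. Among the other clock genes, named here after their values were seen, Dbp, an output gene driven by the clock, had a log2 fold change of 0.29 (SE 0.21) with rat 8 and 0.41 (SE 0.19) without. Per1, a negative limb gene, had -0.28 (SE 0.39) and -0.52 (SE 0.26), and Clock, the partner of Bmal1, had -0.03 (SE 0.17) and -0.06 (SE 0.14). The clock list turned with rat 8: of 15 genes tested, 6 were higher and 9 lower with it (median -0.01, against 0.01 over all genes), and 9 were higher and 6 lower without it (median 0.15, against -0.02 over all genes). Over all genes 50.6% and 45.5% were higher.

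**Figure D2:**
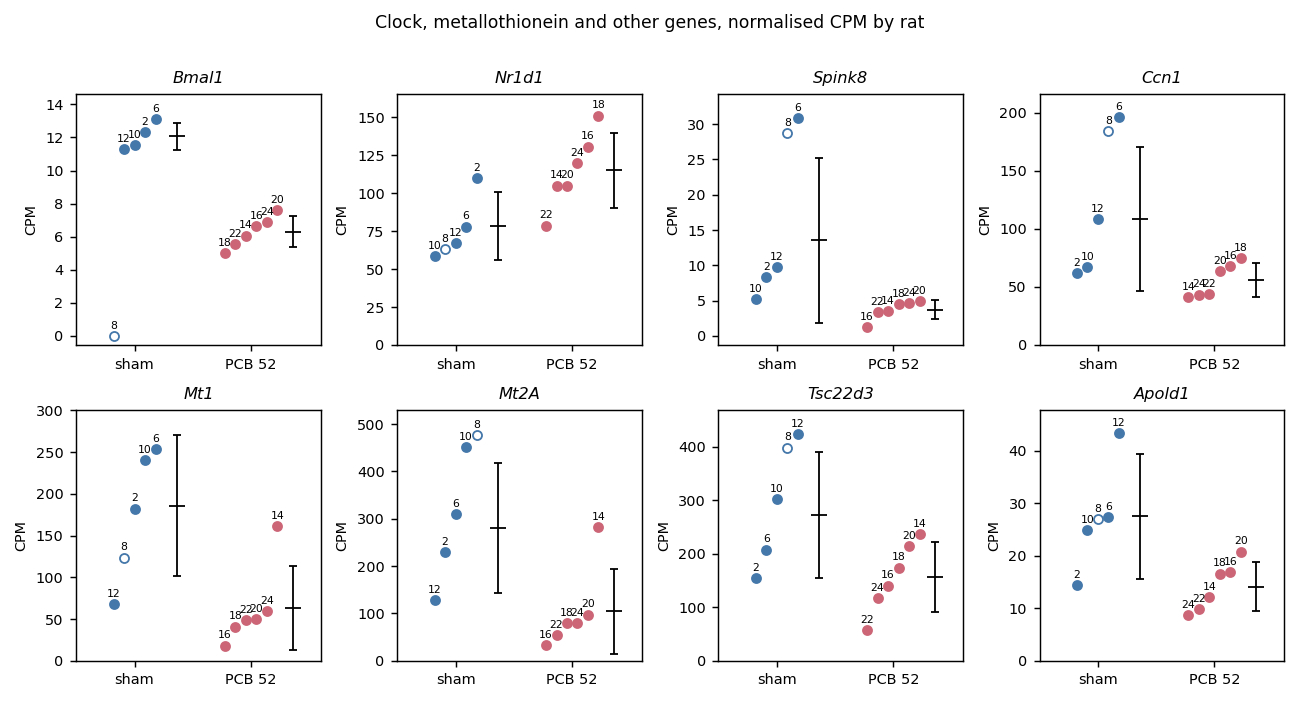
Points give normalised CPM in each library by rat number for 8 genes, sham in blue and PCB 52 in red, with rat 8 as an open circle; black bars are mean ± SD without rat 8 (n = 4 sham, n = 6 PCB 52). Bmal1 separates the groups once rat 8 is set aside, Spink8 separates them with it, and PCB 52 rat 14 sits at sham levels for Mt1 and Mt2A.

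Genes of hormone sensing in fat cells leaned to higher values. Of 24 tested members of the list of hormone receptors and cyclic AMP signalling, 20 had a higher value after PCB 52, both with and without rat 8, where 50.6% and 45.5% of all genes did. The median log2 fold change was 0.35 with all libraries and 0.28 without rat 8, and 0 of 24 passed the test in either. Tshr (gene 25360), the thyrotropin receptor, which raises cyclic AMP in fat cells, was at 34.8, 32.6, 24.1, 31.4 and 40.0 CPM in sham rats 2, 6, 8, 10 and 12. After PCB 52 it was 38.6 to 87.0 CPM with a median of 64.1. Rats 16, 18, 20 and 24 were above every sham rat, and rats 14 and 22 lay within the sham range at 39.0 and 38.6 CPM. The log2 fold change was 0.93 (SE 0.25, unadjusted p = 0.0035, adjusted p = 0.768 in edgeR) with all libraries and 0.86 (SE 0.25) without rat 8.

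Adrb3, the beta-3 adrenergic receptor through which sympathetic nerves trigger lipolysis, was 3.21, 8.31, 5.12 and 11.02 CPM in sham rats 2, 6, 10 and 12 and had no count in rat 8. After PCB 52 it was 6.74 to 28.9 CPM (median 18.5), with rat 14 lowest and 5 of 6 libraries above every sham library. The fitted log2 fold change was 1.73 (SE 0.69) with rat 8 and 1.45 (SE 0.44) without, with adjusted p of 0.768 and 0.9997 in edgeR. Gcgr, the glucagon receptor, was 10.04, 8.04, 6.63, 2.79 and 7.62 CPM in the sham rats in number order and 5.43 to 34.0 CPM (median 18.9) after PCB 52. Only PCB 52 rat 22 fell inside the sham range, and the log2 fold change was 1.42 both with (SE 0.43) and without rat 8 (SE 0.46).

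In Abcd2, Nat8l and Dgat2, genes of fat cell metabolism, the same PCB 52 rats 16, 18, 20 and 24 were highest. Abcd2, a peroxisomal transporter of very long chain fatty acids, was 51.4, 46.9, 41.5, 50.2 and 65.7 CPM in sham rats 2, 6, 8, 10 and 12 and 59.9 to 112 CPM (median 86.2) after PCB 52. Its log2 fold change in the fit of 11 libraries was 0.74 (SE 0.21), and 0.70 (SE 0.20) without rat 8. Rats 14 and 22, at 63.2 and 59.9 CPM, again lay inside the sham range. Nat8l, which makes N-acetylaspartate, was 21.4 to 39.1 CPM in the sham rats and 35.7 to 96.6 CPM after PCB 52, with rats 14 and 22 at 37.9 and 35.7 CPM. Its log2 fold change was 0.96 (SE 0.27) with rat 8 and 0.87 (SE 0.26) without it. Dgat2, which catalyses the last step of triglyceride synthesis, was 430, 313, 147, 219 and 254 CPM in the sham rats in number order and 321 to 797 CPM (median 535) after PCB 52, a log2 fold change of 0.95 (SE 0.30) with rat 8 and 0.82 (SE 0.27) without. The 8 genes of smallest p on the higher side with all libraries were Tshr, Abcd2, Nat8l, Dgat2, Gcgr and 3 more: Slc36a2, a proton-coupled amino acid transporter, Sema3e, a secreted guidance factor, and Dmrt2, a transcription factor. These had log2 fold changes of 1.03 (SE 0.31), 1.0 (SE 0.31) and 0.63 (SE 0.19) with rat 8 and of 0.88 (SE 0.27), 0.94 (SE 0.29) and 0.62 (SE 0.18) without.

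PCB 52 rats 14 and 22, which had sham-like levels of Tshr, Abcd2, Nat8l, Pparg and Cebpa, were the PCB 52 libraries with the most mammary RNA (38580 and 29548 summed CPM against 4822 to 13111) and the most cell cycle RNA (1025 and 1604 summed CPM against 207 to 447). Among the sham libraries other than rat 8, rat 12 had the least mammary RNA, at 7126 summed CPM, and the highest Tshr, Abcd2, Adrb3, Pparg and Cebpa. Other genes had another order. Sham rat 2 was the highest of these libraries for Dgat2, Gcgr, Slc1a5 and Fasn. Its mammary RNA, at 21644.5 summed CPM, lay between that of rat 12 and those of rats 10 and 6 (30823 and 33350). Its cell cycle RNA, at 2374 summed CPM, was the highest of these libraries. Rat 12 had the lowest sum of lipogenesis genes among them, at 6167 CPM. The part that tissue composition had in these differences was not tested.

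**Figure D3:**
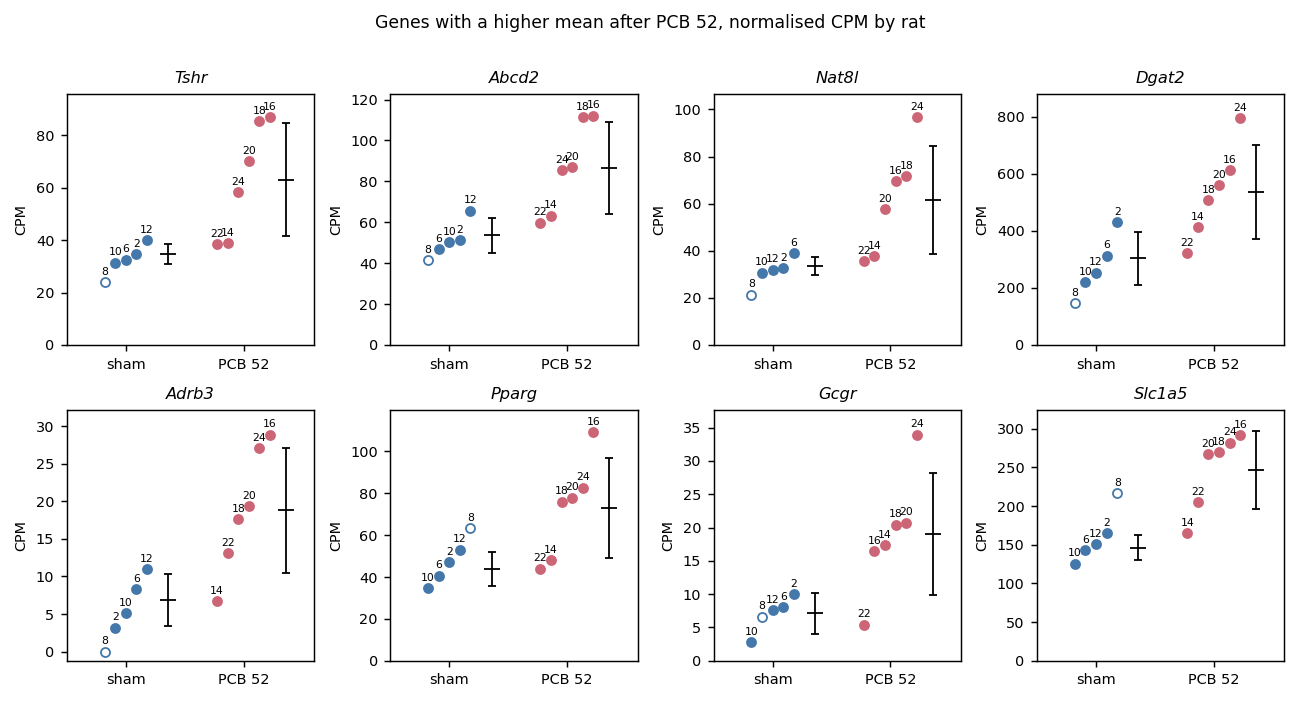
Points give normalised CPM by rat for 8 genes with a higher mean after PCB 52, sham in blue and PCB 52 in red, rat 8 open; black bars are mean ± SD without rat 8 (n = 4 sham, n = 6 PCB 52). In Tshr, Abcd2, Nat8l and Pparg the PCB 52 rats 14 and 22 sit with the sham rats and rats 16, 18, 20 and 24 above them.

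The adipocyte identity list turned with rat 8. With all libraries 7 of 17 tested members were higher and the median log2 fold change was -0.07, and without rat 8 15 of 17 were higher with a median of 0.44. None of the 17 passed the test in either fit, and of all genes 50.6% were higher with rat 8 and 45.5% without. Adipoq was 842, 678, 962 and 1311 CPM in sham rats 2, 6, 10 and 12, 4581 CPM in rat 8, and 809 to 1932 CPM (median 1412) after PCB 52, so its log2 fold change was -0.35 (SE 0.51) with rat 8 and 0.53 (SE 0.28) without. Lep, which encodes leptin, was 45.5 to 109 CPM in the 4 sham rats and 63.9 to 197 CPM after PCB 52, and 486 CPM in rat 8. Its log2 fold change was -0.53 (SE 0.59) with rat 8 and 0.59 (SE 0.33) without. Cfd, the adipokine adipsin, was 1123 to 3510 CPM in the 4 sham rats, 1053 to 4549 CPM after PCB 52 and 49627 CPM in rat 8, a log2 fold change of -2.20 (SE 0.93) that became 0.14 (SE 0.40).

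The fat cell transcription factors Pparg and Cebpa had a higher mean after PCB 52 in both fits. Pparg, the master regulator of adipogenesis, was 47.2, 40.7, 34.6 and 53.1 CPM in sham rats 2, 6, 10 and 12 and 63.6 CPM in rat 8, and 44.0 to 109 CPM (median 77.0) after PCB 52. Its log2 fold change was 0.58 (SE 0.26) with all libraries and 0.74 (SE 0.25) without rat 8, neither passing after adjustment in edgeR (0.768 and 0.9997). Cebpa, its partner in the fat cell programme, was 145 to 195 CPM in the sham rats and 172 to 299 CPM after PCB 52, with log2 fold changes of 0.50 (SE 0.19) and 0.49 (SE 0.18). Trarg1, which helps move the insulin-responsive glucose transporter to the membrane, had 0.58 (SE 0.24) and 0.53 (SE 0.23). Over 16 adipogenic transcription factors 11 were higher with rat 8 and 10 without, with medians of 0.35 and 0.13, where 50.6% and 45.5% of all genes were higher.

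Genes that store and release lipid showed wide spread. The list counts stand beside 50.6% of all genes higher with rat 8 and 45.5% without. Of 13 triglyceride synthesis genes, 10 were higher with rat 8 and 9 without (medians 0.11 and 0.15), of 17 lipogenesis genes 12 and 11 (0.18 and 0.17), and of 15 lipase and lipid droplet genes 9 and 10 (0.21 and 0.14), with 0 passing the test in any of the lists. Gpat4, an acyltransferase early in triglyceride synthesis, was lower, at -0.82 (SE 0.33) with rat 8 and -0.29 (SE 0.12) without. Gpam, the mitochondrial enzyme of the same step, named here after its values were seen, was at 1.0 (SE 0.59) and 0.71 (SE 0.32). Fasn, fatty acid synthase, was 2639, 2504, 1441 and 1272 CPM in sham rats 2, 6, 10 and 12, 433 CPM in rat 8, and 1189 to 5640 CPM after PCB 52, a log2 fold change of 0.84 (SE 0.48) with rat 8 and 0.61 (SE 0.38) without. Scd, which makes monounsaturated fatty acids, spanned 382 to 7258 CPM in those 4 sham rats and 991 to 9707 CPM after PCB 52 (0.50, SE 0.75, with rat 8 and 1.16, SE 0.76, without). The coat protein gene Plin1 was at 0.92 (SE 0.52) with rat 8 and 0.65 (SE 0.32) without. The lipase gene Lipe was at 0.29 (SE 0.26) and 0.25 (SE 0.26), and Pnpla2 at 0.47 (SE 0.42) and 0.25 (SE 0.33).

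A second set of genes came forward once rat 8 was left out. Slc1a5, a neutral amino acid transporter that carries glutamine, was 164, 143, 126 and 151 CPM in sham rats 2, 6, 10 and 12 and 165 to 292 CPM (median 268) after PCB 52. The groups just failed to overlap, PCB 52 rat 14 lying next to sham rat 2, and rat 8, at 217 CPM, lay among the PCB 52 libraries. The log2 fold change was 0.76 (SE 0.17, adjusted p = 0.9997 in edgeR) without rat 8 and 0.59 (SE 0.21) with it. Plagl1, an imprinted zinc finger factor, had 0.89 (SE 0.21), Kcnh2, a potassium channel subunit, 0.65 (SE 0.18), Dagla, which makes the endocannabinoid 2-arachidonoylglycerol, 0.62 (SE 0.17), and Tst, a mitochondrial sulfurtransferase, 0.50 (SE 0.14), all without rat 8. With it, Plagl1 was at 1.18 (SE 0.60), Kcnh2 at 0.51 (SE 0.21) and Dagla at 0.91 (SE 0.55). Plagl1 and Dagla were each at 0.491 CPM in rat 8 against 21.9 to 33.5 and 17.9 to 21.5 CPM in the other sham rats. Tst was at 97.9 CPM in rat 8 against 27.7 to 40.3 CPM, and its log2 fold change with that library was -0.02 (SE 0.33).

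Groups that did not overlap were rare in both directions. With all 11 libraries 16 genes were higher in every PCB 52 library than in every sham library (0.135% of 11824) and 8 were lower (0.0677%), and without rat 8 the counts were 27 (0.226% of 11954) and 16 (0.134%). The largest gaps above the sham range with all libraries were in Csgalnact1, an enzyme of chondroitin sulfate synthesis, Nr3c2, the mineralocorticoid receptor, Bmpr1b, a BMP receptor, Prrt4 and Foxred2. Nr3c2 was 5.89 to 16.1 CPM in the 5 sham rats and 17.4 to 22.5 CPM after PCB 52, a log2 fold change of 0.65 (SE 0.26) with rat 8 and 0.50 (SE 0.18) without. Bmpr1b was 1.72 to 9.66 CPM in sham and 10.4 to 18.4 CPM after PCB 52, at 0.95 (SE 0.36) and 0.73 (SE 0.21). Csgalnact1 was 4.42 to 5.44 CPM in sham rats 2, 6, 10 and 12, absent from the counts of rat 8, and 6.47 to 11.7 CPM after PCB 52 (1.05, SE 0.59, with rat 8 and 0.77, SE 0.22, without). Prrt4 was at 1.29 (SE 0.57) with rat 8 and 1.05 (SE 0.43) without, and Foxred2 at 0.87 (SE 0.60) and 0.58 (SE 0.18).

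Spink8 (gene 301016), a Kazal-type protease inhibitor, had the smallest p with all 11 libraries. It was 8.30, 30.8, 28.7, 5.24 and 9.80 CPM in sham rats 2, 6, 8, 10 and 12 and 1.23 to 4.91 CPM (median 4.00) after PCB 52. No PCB 52 library reached the lowest sham library, and sham rats 6 and 8 were the highest of the sham group. The log2 fold change was -2.20 (SE 0.52, unadjusted p = 0.0013, adjusted p = 0.768 in edgeR) with rat 8 and -1.87 (SE 0.49, adjusted p = 0.9997) without. The other genes with the largest gap below the sham range were Atf4, a stress-response factor, Cct4, a chaperonin subunit, Eif3g, a translation initiation factor, and Zfp622. Their gaps were small and their fold changes depended on rat 8. Atf4 was 224 to 241 CPM in 4 sham rats, 1001 CPM in rat 8 and 170 to 216 CPM after PCB 52, giving -1.02 (SE 0.42) with rat 8 and -0.23 (SE 0.10) without. Cct4, Eif3g and Zfp622 went from -1.22, -0.70 and -0.78 to -0.16, -0.19 and -0.24.

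The metallothionein genes Mt1 and Mt2A, whose products bind zinc and copper and which respond to metals and glucocorticoids, were low in 5 of 6 PCB 52 rats. Mt1 was 182, 254, 124, 240 and 67.8 CPM in sham rats 2, 6, 8, 10 and 12 and 18.1 to 161 CPM (median 49.4) after PCB 52. Mt2A was 230, 310, 476, 452 and 128 CPM in the same sham rats and 33.3 to 283 CPM (median 79.4) after PCB 52. PCB 52 rat 14, at 161 and 283 CPM, lay among the sham libraries, and the other 5 PCB 52 rats lay below every sham rat for both genes. The log2 fold changes were -1.48 (SE 0.50) for Mt1 and -1.65 (SE 0.53) for Mt2A with all libraries, and -1.56 (SE 0.55) and -1.43 (SE 0.56) without rat 8. Unadjusted p was 0.0125 and 0.0092 with all libraries, and the adjusted p was 0.768 for both in edgeR. The list of metallothioneins and zinc transporters had 6 tested members, 3 higher and 3 lower in both fits, with medians of -0.04 and -0.25.

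The Mt1 and Mt2A promoters are shown because both carry repeated matches to a loose form of the metal response element, the core sequence bound by the zinc-sensing factor MTF1. Each covers the 250 bases before the annotated start (RefSeq, GRCr8, minus strand, chr19:10832976-10833225 for Mt1 and chr19:10838709-10838958 for Mt2A), printed along the gene's own strand. Capitals mark TGCNCNC on either strand.

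Mt1: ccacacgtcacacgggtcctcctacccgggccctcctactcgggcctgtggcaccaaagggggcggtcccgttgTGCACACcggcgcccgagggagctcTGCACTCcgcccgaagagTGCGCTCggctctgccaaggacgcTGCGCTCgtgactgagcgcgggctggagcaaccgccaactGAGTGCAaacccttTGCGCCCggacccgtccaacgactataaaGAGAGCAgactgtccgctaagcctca

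Mt2A: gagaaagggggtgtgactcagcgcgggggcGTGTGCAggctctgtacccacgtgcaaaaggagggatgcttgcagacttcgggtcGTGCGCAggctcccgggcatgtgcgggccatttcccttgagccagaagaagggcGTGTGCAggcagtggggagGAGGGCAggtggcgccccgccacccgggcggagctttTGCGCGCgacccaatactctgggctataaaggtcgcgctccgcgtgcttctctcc

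The Mt1 window held 7 matches and the Mt2A window 5. At least 1 match was present in 43.4% of the 33469 windows and at least 4 in 1.16%. The Mt1 and Mt2A windows shared the place of 1 match, from 55 to 49 bases before the start.

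More glucocorticoid-responsive and immediate early genes had a lower than a higher mean after PCB 52, and the sham group was split for both lists. Of 19 glucocorticoid response genes 16 were lower with all libraries and 18 without rat 8, with medians of -0.37 and -0.39. Of 28 immediate early genes, which answer stimuli within minutes, 23 were lower with rat 8 and 27 without, with a median of -0.28 in both fits. Over all genes 49.4% and 54.5% were lower, and 0 members of either list passed the test. The mean level of the immediate early list, on the scale of log2 of CPM plus 1, was 4.67 in sham rat 2 and 4.36 in sham rat 8, below every PCB 52 library (4.69 to 5.60), and 5.32 to 5.95 in sham rats 6, 10 and 12. The same mean for the glucocorticoid list was 5.51 and 5.09 in sham rats 2 and 8, inside the PCB 52 range (5.07 to 6.13), and 6.24 to 6.65 in sham rats 6, 10 and 12. Tsc22d3, a direct glucocorticoid receptor target, was 155, 208, 399, 302 and 424 CPM in sham rats 2, 6, 8, 10 and 12 and 57.7 to 237 CPM (median 157) after PCB 52. Its log2 fold change was -0.95 (SE 0.37) with rat 8 and -0.79 (SE 0.37) without. Sgk1, a kinase gene under the same receptor, was at -1.24 (SE 0.44) with rat 8, where it reached 310 CPM, and at -0.56 (SE 0.25) without. Errfi1 and Pdk4, named after their values were seen, were at -0.70 (SE 0.51) and -0.97 (SE 0.89) with rat 8 and at -0.97 (SE 0.35) and -1.28 (SE 0.69) without. For Pdk4, which restrains glucose oxidation, sham rats 6, 10 and 12 had 294, 182 and 365 CPM while sham rats 2 and 8 had 19.8 and 2.21 CPM, under every PCB 52 rat (34.1 to 173 CPM).

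Among immediate early genes Nr4a1, an orphan nuclear receptor, was at -0.85 (SE 0.38) with rat 8 and -1.02 (SE 0.35) without, and Arc, better known from neurons, at -1.58 (SE 0.58) and -1.80 (SE 0.53). For Arc 1 library weighed heavily: sham rat 6 had 22.5 CPM, the other sham rats 1.96 to 4.89 CPM and the PCB 52 rats 1.48 to 3.68 CPM. Ccn1, a matricellular protein and target of the YAP coactivator, was 61.7, 196, 184, 67.2 and 109 CPM in the sham rats in number order and 41.0 to 75.1 CPM after PCB 52, a log2 fold change of -1.18 (SE 0.34) with rat 8 and -0.95 (SE 0.32) without. Ccn2, its relative, was at -1.22 (SE 0.46) and -1.0 (SE 0.48). The rest of that list did not follow, since 10 of 15 matricellular and YAP target genes were higher with rat 8 and 9 without. Apold1, an endothelial early response gene, was 14.5 to 43.3 CPM in sham and 8.68 to 20.7 CPM after PCB 52, at -0.98 (SE 0.31) and -0.95 (SE 0.31).

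**Figure D4:**
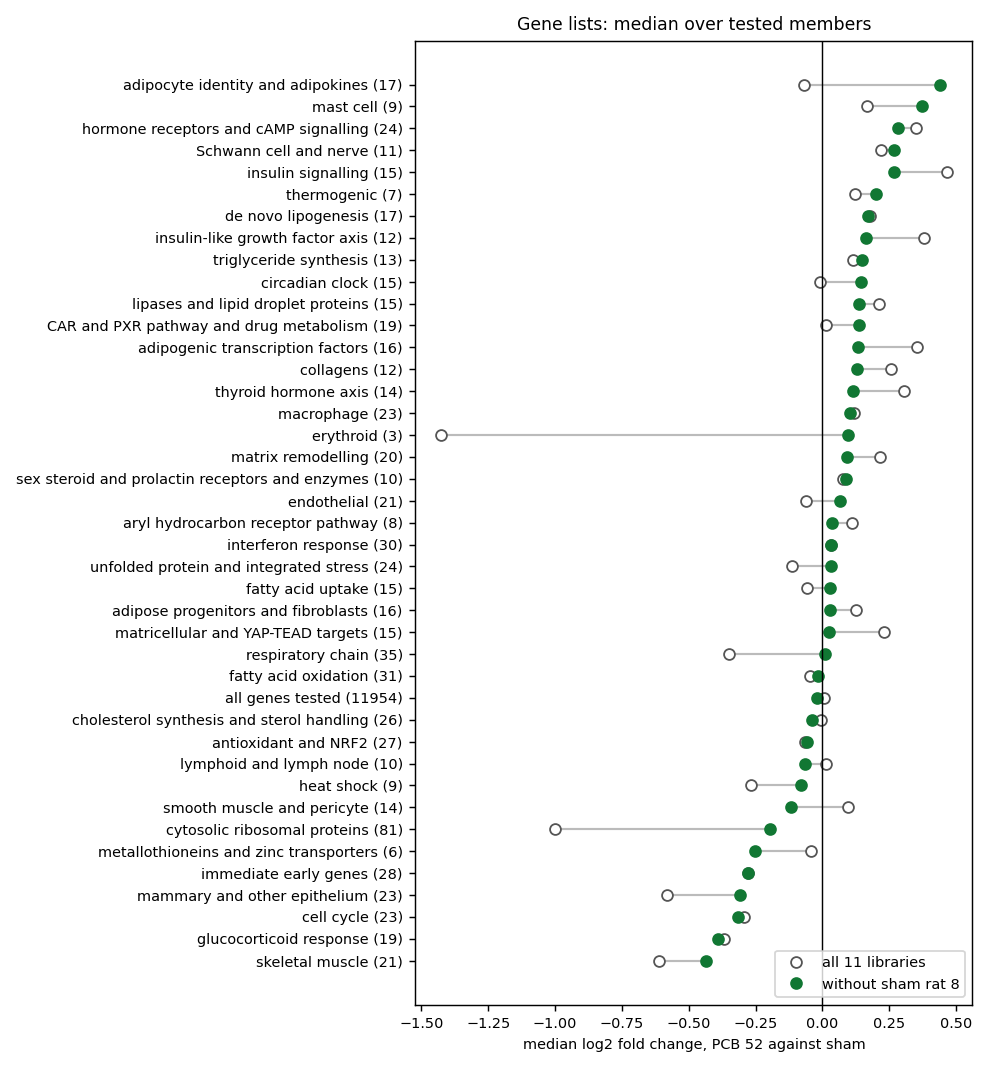
Each row gives the median log2 fold change (PCB 52 over sham) over the tested members of a gene list, with all 11 libraries (open) and without sham rat 8 (green); the number tested without rat 8 is in brackets. Ribosomal protein, respiratory chain and adipocyte lists move with rat 8, while the hormone receptor, glucocorticoid and immediate early lists have the same sign in both.

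Ribosomal protein genes showed how far rat 8 set the comparison. Of 81 tested, 80 were lower with all libraries with a median log2 fold change of -1.001, and 45 of them had an unadjusted p under 0.05. Without rat 8, 81 of 81 were lower, with a median of -0.20 and 2 at an unadjusted p under 0.05. Of all genes 49.4% were lower with rat 8 and 54.5% without. Those lower at an unadjusted p under 0.05 in edgeR were 4.61% and 0.694%. Rplp1, a protein of the ribosomal stalk, was 66116 CPM in rat 8 against 1878 to 2782 CPM in the other sham rats and 1674 to 2222 CPM after PCB 52, and went from -3.04 (SE 0.98) to -0.23 (SE 0.14). Rpl41 went from -3.36 to -0.21 and Ndufb7, a subunit of respiratory complex I, from -3.53 to -0.22. The respiratory chain list had 26 of 35 members lower with rat 8 (median -0.35) and 15 of 35 without (median 0.01). Rwdd2a and B3galnt1, further genes of small p, went from -2.20 (SE 0.68) to -1.37 (SE 0.54) and from -0.89 (SE 0.30) to -0.45 (SE 0.15). The other genes among the 8 of smallest p on the lower side without rat 8 included Ndfip2, an adaptor of ubiquitin ligases, at -0.34 (SE 0.10), Pawr, a pro-apoptotic factor, at -0.48 (SE 0.16), and Angptl4, a secreted inhibitor of lipoprotein lipase, at -0.59 (SE 0.20). With rat 8 these were at -0.22 (SE 0.18), -0.42 (SE 0.19) and -0.42 (SE 0.28).

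Receptors and enzymes through which organochlorines are classically sensed had overlapping groups, and none passed the test. Cyp1a1, the main inducible target of the aryl hydrocarbon receptor, stayed at or under 0.535 CPM in every library. Ahr itself was 44.4 to 86.9 CPM in sham and 49.7 to 94.5 CPM after PCB 52, at -0.08 (SE 0.22) with rat 8 and -0.05 (SE 0.22) without. Cyp1b1, a further target of this receptor, was at 0.33 (SE 0.84) and 0.04 (SE 0.65), with 2.94 to 23.1 CPM in the 4 sham rats and 3.24 to 16.96 CPM after PCB 52. Nr1i3, which encodes the nuclear receptor CAR, was at 0.40 (SE 0.61) with rat 8 and 0.11 (SE 0.23) without. Cyp2b1, its target and the usual sign of exposure to PCBs of this kind in liver, was between 0 and 5.36 CPM in sham and 0.255 and 4.30 CPM after PCB 52, at -0.51 (SE 0.88) and -0.78 (SE 0.78). The antioxidant genes Nqo1 and Hmox1 were at -0.28 (SE 0.29) and -0.42 (SE 0.19) with rat 8 and at 0.03 (SE 0.21) and -0.33 (SE 0.17) without. Of 8 tested genes of the aryl hydrocarbon receptor pathway 4 were higher with rat 8 and 5 without (medians 0.11 and 0.03). Of the CAR and PXR list 9 of 18 were higher with rat 8 and 13 of 19 without (medians 0.01 and 0.14). The shares of all genes were 50.6% and 45.5%.

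Hormone axes beyond Tshr were also examined. Dio2, the deiodinase that activates thyroid hormone, was 7.76, 20.1, 16.2, 3.03 and 11.4 CPM in the sham rats in number order and 1.62 to 7.87 CPM (median 4.70) after PCB 52. The log2 fold change of Dio2 was -1.32 (SE 0.48) with rat 8 and -1.15 (SE 0.48) without, with adjusted p of 0.768 and 0.9997 in edgeR. Dio2 was opposite in sign to Tshr in the same list, where 12 of 14 genes were higher with rat 8 (median 0.31) and 11 without (median 0.11). Esr1, the oestrogen receptor alpha, was at 0.76 (SE 0.67) with rat 8 and 0.46 (SE 0.25) without, and Prlr, the prolactin receptor, at 0.35 (SE 0.44) and 0.09 (SE 0.23). Of the milk and epithelial genes 22 of 23 were lower with rat 8 (median -0.58) and 21 without (median -0.31). Of all genes 49.4% and 54.5% were lower, and 50.6% and 45.5% higher. Wap, whey acidic protein, was 12.0, 653, 427, 640 and 23.7 CPM in the sham rats in number order and 8.10 to 119 CPM after PCB 52, with a log2 fold change of -2.91 (SE 1.05) with rat 8 and -2.81 (SE 1.19) without. Csn1s1 was at 0.18 (SE 0.86) with rat 8 and -0.10 (SE 0.83) without.

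The comparison was set beside the other depots and the other sex, each with its own controls. The male rats began exposure or sham at 39 days of age, 3 days before the females. In female VAT, female BAT and male SAT edgeR called 0 of 11143, 0 of 10686 and 0 of 11459 genes (0% each), with 1066 (9.57%), 388 (3.63%) and 165 (1.44%) at an unadjusted p under 0.05. The female rats of the 3 depots carry the same numbers, so their libraries are read as coming from the same animals. Bmal1 had log2 fold changes of -0.38 (SE 0.28) in female VAT, -0.43 (SE 0.36) in female BAT and 0.65 (SE 0.52) in male SAT. The difference between the female and male SAT effects for Bmal1, without rat 8, was -1.57 (SE 0.60, unadjusted p = 0.0157, adjusted p = 0.999 in edgeR). With rat 8 the female SAT effect for Bmal1 was smaller and its SE larger, as given above. The sex difference for Bmal1 is given here only without that library. Mt1 and Mt2A were at -1.20 (SE 0.26) and -1.35 (SE 0.37) in female VAT and at -0.25 (SE 0.33) and -0.22 (SE 0.23) in BAT. Tsc22d3 was at -0.69 (SE 0.21) in VAT, -0.76 (SE 0.18) in BAT and -0.18 (SE 0.30) in male SAT. Nat8l, by contrast, was at -0.16 (SE 0.19) in VAT, and its SAT effect exceeded the VAT effect by 1.11 (SE 0.34, unadjusted p = 0.00249, adjusted p = 0.209 in edgeR) with rat 8 and by 1.03 (SE 0.34) without. With the rat number as a block the Nat8l difference was 0.98 (SE 0.36, adjusted p = 0.697 in edgeR). In the same fit the Nat8l difference from BAT was 0.61 (SE 0.36, adjusted p = 0.888 in edgeR). For Spink8 the SAT effect lay below the BAT effect by 2.69 on the log2 scale (difference -2.69, SE 0.66, unadjusted p = 0.000259, adjusted p = 0.508 in edgeR) with rat 8, and without it the difference was -2.38. With the rat number as a block the Spink8 difference was -2.37 (SE 0.70, adjusted p = 0.888 in edgeR). In that fit the Spink8 difference from VAT was -1.24 (SE 0.86, adjusted p = 0.697 in edgeR). Mean Spink8, scaled within each comparison, was 0.360 CPM after PCB 52 and 0.653 CPM in sham in VAT. It was 0.598 and 1.38 CPM in male SAT and 7.91 and 5.63 CPM in BAT.

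For the difference of the PCB 52 effect between female SAT and each of these, edgeR called 0 of 12157 genes against male SAT, 0 of 12303 against VAT and 0 of 12303 against BAT (0% each), with 792 (6.51%), 1572 (12.8%) and 1037 (8.43%) at an unadjusted p under 0.05. With the rat number as a block, the last 2 counts were 636 (5.17%) and 347 (2.82%), with 0 called. Without SAT sham rat 12, edgeR called 1 gene, Map6d1, against VAT and against BAT. DESeq2 called 0 genes for the sex difference, 11 for that from VAT (0.0914% of 12029 with an adjusted value) and 1 for that from BAT (0.00831%), and limma voom called 0 in each. Without rat 8 those edgeR counts at an unadjusted p under 0.05 were 188 of 12272 (1.53%), 407 of 12390 (3.28%) and 240 of 12390 (1.94%), with 0 called in each.

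**Figure D5:**
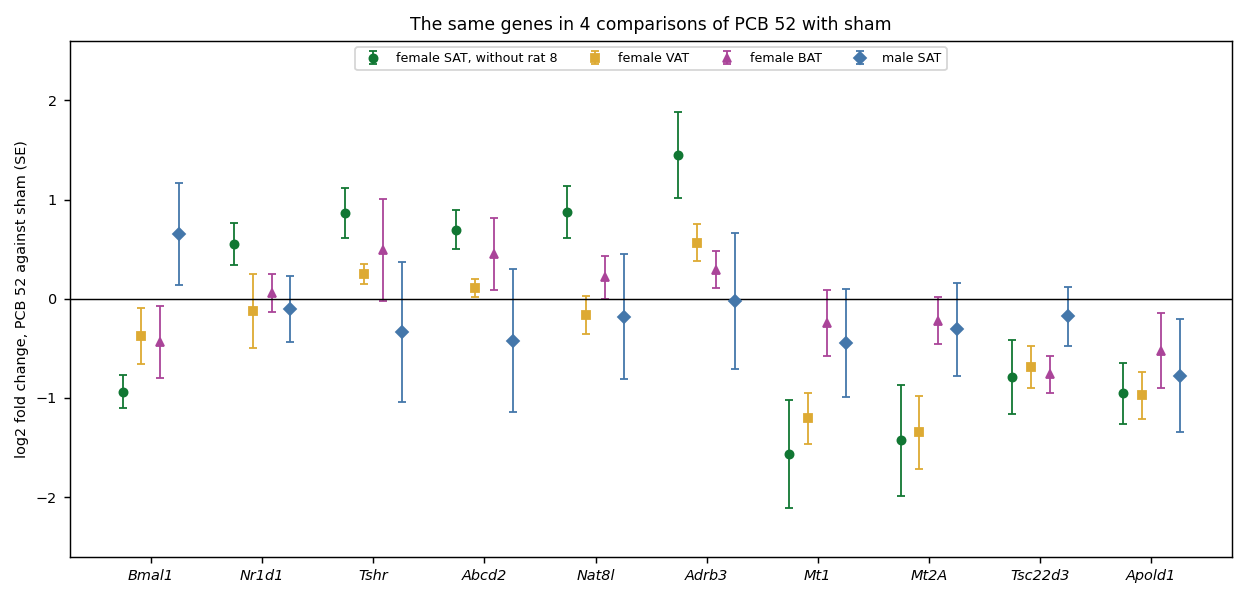
Points give the log2 fold change of PCB 52 over sham with its SE for 10 genes in female SAT without rat 8, female VAT, female BAT and male SAT. Mt1, Mt2A, Tsc22d3 and Apold1 lie below 0 in all 4 comparisons, and Bmal1 lies below 0 in the 3 female depots and above it in male SAT.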

How the data were processed

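RNA-seq libraries of female SAT, with male SAT and female VAT and BAT for comparison, were analysed from 4 deposited tables. The authors deposited read counts per gene with no normalisation. In the female VAT table, 5 lines of sums below the genes leave some values of the deposited file not whole, so that its unit was recorded as estimated counts; those lines were left out. FastQC, HISAT2 and the rn6 build are named in the submitters' processing notes; the counting tool is not given in the sources used here. Per the labels' protocols, samples entered only at an RNA integrity number of 8 or above, and libraries were made by poly(A) capture or rRNA removal. Symbols were matched by gene ID to RefSeq (GRCr8) for 15230 of 15319 genes.

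Counts were filtered by expression, scaled by TMM and tested with edgeR 4.0.16 (R 4.3.3; robust quasi-likelihood test), adjusting over all genes tested, with a threshold of 0.05. Differences between depots or sexes were interaction contrasts. A log2 standard error was taken from the F statistic. Alternatives were RLE size factors, no filter, DESeq2 1.42.0, limma 3.58.1 (voom, with and without quality weights) and leaving out each library. The scripts were tested on simulated data. A limit for 0 counts is 3 counts in that library and covers counting error only.

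The 40 gene lists, the rule for named genes and the membership of the comparison were chosen with earlier results of these data known. The rule names the 8 genes of smallest p each way with and without rat 8, the 2 list members of smallest p in each list, a fixed set of genes of fat, hormone and xenobiotic biology (1 of which is not reported here), the 5 widest gaps each way between groups that do not overlap, and 5 genes each way that set rat 8 apart from the other sham rats. Of the 791 list genes in the table, 16 are in more than 1 list.

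No pair of libraries agreed within sampling noise (the lowest mean chi-square per gene was 15.8). Rats keep 1 number, sex and treatment across depots in the titles, which was read as 1 animal. Deviations of the same rat from its group means correlated at -0.115 to 0.222 between SAT and VAT (above 0.1 in 4 of 11 rats) and at -0.599 to 0.222 between SAT and BAT (2 of 11).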

Additional observations from a re-analysis of the deposited data

Results flagged for a closer look

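Of 156 groups of values checked (3 library measures and the level of 75 named genes, in each treatment group), 23 held a library far from the rest of its group. Chance alone gives about 1 in 20 only for independent groups not chosen by their values. Many of these genes were named from these same values and share the same libraries, so the 23 cannot be set against that rate. Of these, 19 were the library of sham rat 8 and 4 were PCB 52 libraries.

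Sham rat 8 stood apart in its ribosomal share (28.2% of counts), its number of genes with a count (11108) and its TMM factor (0.551). On the scale of log2 of CPM plus 0.5 it was far above the other sham rats for Ndufb7 (10.96), Rpl41 (15.63), Rplp1 (16.01), Gpat4 (8.35), Atf4 (9.97), Cct4 (10.58), Eif3g (8.64) and Zfp622 (7.81). It was far below them for Plagl1 and Dagla (-0.0133 each), for Gpam (2.22), and for Csgalnact1, Bmal1, Nr1i3, Esr1 and Foxred2 (-1, which is a count of 0).

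Among 9449 genes with a mean of at least 10 CPM, the 5 lowest in rat 8 against the other sham rats all had 0 counts in it: Muc15 (146 to 307 CPM in the others), Crtap (122 to 193 CPM), Hipk3, Med23 and Akap1. The 5 highest were Amy2a3, a pancreatic amylase gene (241 CPM against at most 0.233 CPM), Zfp36l3 (352 against at most 0.938 CPM), and the slow muscle and heart genes Myh7 (160 against at most 0.116 CPM), Myl3 (277 against at most 3.54 CPM) and Tnnc1 (256 against at most 2.33 CPM). With genes split into 4 equal groups by length in the GRCr8 annotation, introns included, the shortest group was 0.54 higher on the log2 scale in rat 8 than in the other sham rats (median of 2356 genes), and the longest group was at -1.07 (median of 2355 genes). The part of gene length in the difference was not tested.

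In the PCB 52 group, Spink8 was low in rat 16 (0.79), Rwdd2a was high in rat 14 (1.85), Scd was low in rat 22 (9.95) and Ahr was high in rat 14 (6.57). Rats 14 and 22 are those with the most mammary and cell cycle RNA in that group.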

How the results depend on the processing

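With all 11 libraries 0 genes were called under each of the 16 alternatives run (edgeR settings, DESeq2 and limma), and the lowest adjusted p was 0.254, from limma voom with quality weights. Without rat 8 the 15 alternatives gave 0 calls except DESeq2 (1 gene, Bmal1). For the difference from VAT, DESeq2 called 11 genes and leaving out 1 library gave 0 to 1 (Map6d1, without SAT sham rat 12); for the difference from BAT, DESeq2 called 1 (Fam25a) and leaving out 1 library again gave 0 to 1 (Map6d1, without SAT sham rat 12). With the rat number as a replicate block, 0 genes were called for either depot difference (636 and 347 at an unadjusted p under 0.05), also without the SAT library of rat 8, an alternative added after the data were seen. Leaving out 1 library moved the number of genes at an unadjusted p under 0.05 from 605 to between 226 (without PCB 52 rat 16) and 1065 (without sham rat 2).

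Of 75 named genes, 63 kept their sign under every alternative with all 11 libraries, and all 16 named without rat 8 kept theirs there. Leaving out 1 library gave both signs for Tst (-0.14 to 0.50), Adipoq (-0.55 to 0.53), Lep (-0.77 to 0.59), Cfd (-2.48 to 0.14), Nqo1 (-0.39 to 0.032), Ahr (-0.23 to 0.067), Cyp2b1 (-0.78 to 0.060), Per1 (-0.52 to 0.010), Clock (-0.11 to 0.046) and Csn1s1 (-0.28 to 0.47). Quality weights, which give rat 8 a weight of 0.0304, turned Tst (0.62), Adipoq (0.57), Lep (0.64), Cfd (0.051), Nqo1 (0.20) and Csn1s1 (-1.11). Voom turned Tst (0.22), Lep (0.017), Bmal1 (0.0086) and Pdk4 (0.064), and no filter turned Tst (0.025). The cause of these turns was not tested. Of 640 list medians under the alternatives, 28 moved by more than the spread of the list's level between libraries. Genes under about 1 CPM lie near the limit of 3 counts (0.333 to 0.736 CPM) and were not resolved at this depth.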

Other observations

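Mast cell genes shared a direction once rat 8 was left out: 9 of 9 tested were higher after PCB 52, with a median log2 fold change of 0.37, against 6 of 9 (median 0.17) with it. None passed the test in either fit, and of all genes 45.5% were higher without rat 8 and 50.6% with it. Cpa3, mast cell carboxypeptidase, was 75.5, 34.2, 36.9 and 55.9 CPM in sham rats 2, 6, 10 and 12 and 40.3 to 103 CPM (median 74.2) after PCB 52. Tpsb2, a tryptase, was 10.6 to 23.1 CPM in those sham rats and 9.20 to 31.1 CPM after PCB 52. PCB 52 rats 14 and 22 were the lowest of their group for both genes, at 40.3 and 41.3 CPM and at 9.98 and 9.20 CPM. The same rats were lowest of their group for Tshr, Abcd2 and Nat8l.

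Genes of insulin signalling (12 of 15 higher with rat 8 and 11 without, medians 0.47 and 0.27) and of the insulin-like growth factor axis (10 and 8 of 12, medians 0.38 and 0.17) also lay on the higher side. Macrophage genes were higher in 15 of 23 with rat 8 and 16 without (medians 0.12 and 0.10), and interferon response genes in 16 and 18 of 30 (median 0.03 in both). Collagen genes were higher in 11 of 12 and 10 of 12 (medians 0.26 and 0.13). Over all genes 50.6% were higher with rat 8 and 45.5% without, and no member of these lists passed the test.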
